A study of Mus musculus with 6 samples.

Results

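The nuclear factor I (NFI) family was examined here together with the genes that lie opposite to its exons, in wild-type mouse embryonic stem cells and cortical neurons. The set held 8 of the 57010 genes of the deposited count table. Nfia, Nfib, Nfic, Nfix and G430095P16Rik were taken by symbol. E130114P18Rik, Gm16104 and Lyl1 were added because their exons share at least 1 base with an NFI exon of the opposite strand, by the coordinates deposited with the counts. The counts in ESC and neuron libraries were known when these genes were chosen, so their differences between the groups are described below and were not tested.

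RNA sequencing had been carried out on 6 samples in 2 groups of 3, as pluripotent and neuronal reference states in a study of Rai1. The ESC group held cultured embryonic stem cells of genotype WT. The neuron group (DIV7) held primary cortical neurons of genotype WT, from embryonic cortices (day 16.5) after 7 days in vitro. Per the labels no sample was perturbed. The word empty, left unexplained, occurs in the names of the libraries of neuron replicates 2 and 3. The labels name neither the strain nor the animals pooled in a culture, and do not say that the replicates were separate cultures, so p-values measure the spread between these samples, which may be technical. Each group has its own batch label, so the effects of batch and cell type cannot be told apart. Libraries were made by oligo-dT priming, and neither their strandedness nor the strand setting of the counting is given in the sources used here. Reads of an NFI gene and of the gene opposite to it therefore cannot be told apart with certainty, and the values of overlapping genes are given as the table assigns them. Loci with a protein-coding gene, an exon-sharing opposite gene and at least 10 counts were also taken over the whole table. Their median share of counts on the opposite genes was 83.2% in ESC and 81.5% in neurons. Whether reads were assigned to the strand opposite their transcript was not tested. Counts below are therefore not read as the RNA level of the named gene.

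NFI proteins are transcription factors that bind DNA as dimers through a conserved N-terminal domain, to a palindrome made of TTGGC sites in inverted orientation. In the developing forebrain Nfia, Nfib and Nfix are known for driving radial glia out of self-renewal, for the onset of astrocyte formation and for the maturation of neurons, and loss of Nfia or Nfib disturbs formation of the corpus callosum. Nfic is best known for its part in tooth root formation. Lyl1, which lies opposite the 3′ end of Nfix, encodes a basic helix-loop-helix factor studied mainly in blood formation. G430095P16Rik, E130114P18Rik and Gm16104 are poorly characterised. RefSeq classes all 3 as lncRNA, whereas GENCODE mouse release M21 classes the first 2 as protein_coding and Gm16104 as antisense.

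The overlaps differed in kind between the loci. All positions in this paragraph are those of the deposited table. Nfix lies on the minus strand of chromosome 8 (85426505 to 85526973) with 7351 exonic bases, and G430095P16Rik on the plus strand (85449636 to 85453473) with 721. They shared 137 bases (85453098 to 85453234), which are 1 whole Nfix exon inside the 456-base second exon of G430095P16Rik. Lyl1 (85428078 to 85431569, plus strand, 2033 exonic bases) shared 229 bases with Nfix (85431341 to 85431569), at the end of a Lyl1 exon of 1046 bases and of a 3966-base Nfix exon. In GENCODE M21 this last overlap is only 4 bases, all UTR. Nfic (chromosome 10, 81232020 to 81291469, minus strand, 6630 exonic bases) shared 72 bases with Gm16104 (81245348 to 81247427, plus strand, 476 exonic bases). These too were 1 whole Nfic exon (81245445 to 81245516), inside a 252-base exon. Nfia (chromosome 4, 97660971 to 98007111, plus strand, 10891 exonic bases) and E130114P18Rik (97456370 to 97666315, minus strand, 2046 exonic bases) run away from each other and shared 4 bases (97666228 to 97666231). Nfib (chromosome 4, 82208410 to 82623987, minus strand, 14957 exonic bases) shared no exonic base with any gene on the opposite strand.

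**Figure D1:**
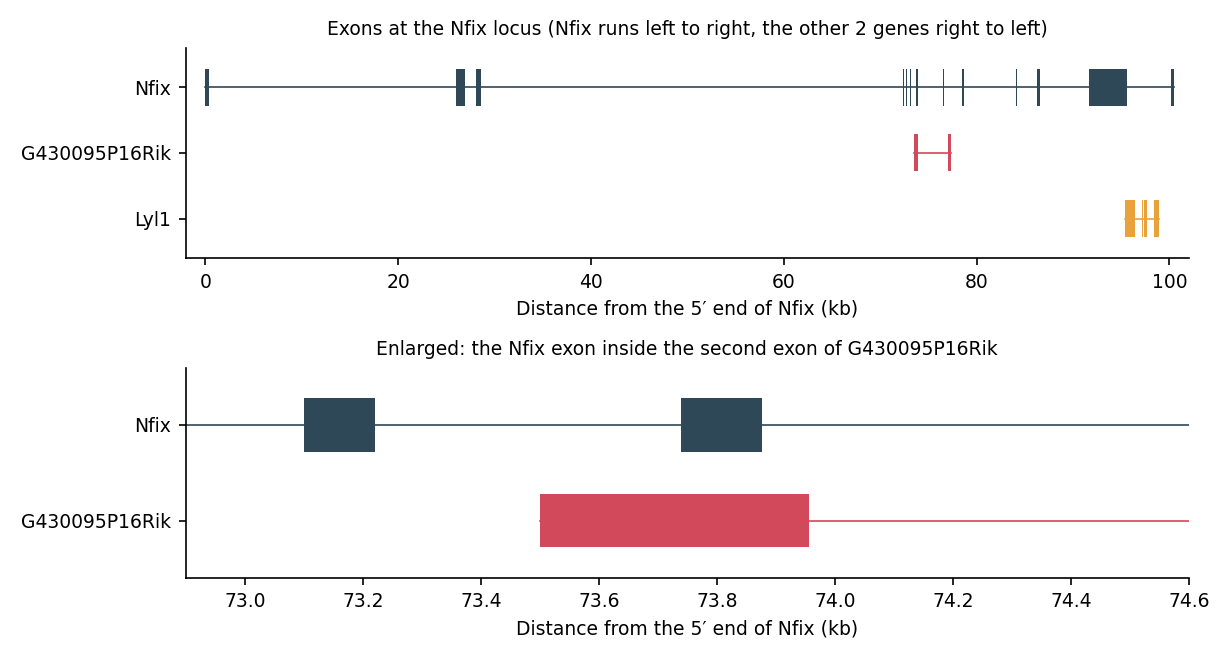
Exons (boxes) of Nfix, G430095P16Rik and Lyl1, by distance from the 5′ end of Nfix in kb, with 1 stretch enlarged in the lower panel. The 137-base Nfix exon lies wholly inside the 456-base exon of G430095P16Rik, and Lyl1 meets a 3966-base Nfix exon at its far end.

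The shared stretches are shown because they are the exonic bases that both genes of a pair have in common. They were read from the GENCODE M21 transcripts, which are on GRCm38, so the positions beside them are not those of the table. At both loci the NFI exon is coding throughout in M21. The first 300 bases of the second exon of G430095P16Rik (GRCm38, chr8:84726389-84726688, plus strand) are given with the stretch shared with Nfix in capitals, then the same Nfix exon on its own strand (chr8:84726469-84726605, minus strand), then the first exon of Gm16104 in M21 (chr10:81409575-81409765, plus strand, 191 bases) with the stretch shared with Nfic in capitals.
G430095P16Rik: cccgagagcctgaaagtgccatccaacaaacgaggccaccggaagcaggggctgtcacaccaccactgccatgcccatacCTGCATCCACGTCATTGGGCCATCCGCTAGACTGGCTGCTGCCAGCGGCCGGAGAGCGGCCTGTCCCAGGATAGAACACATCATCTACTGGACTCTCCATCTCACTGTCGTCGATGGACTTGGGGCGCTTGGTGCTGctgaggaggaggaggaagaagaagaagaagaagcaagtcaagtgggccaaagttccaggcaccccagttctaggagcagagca
Nfix exon: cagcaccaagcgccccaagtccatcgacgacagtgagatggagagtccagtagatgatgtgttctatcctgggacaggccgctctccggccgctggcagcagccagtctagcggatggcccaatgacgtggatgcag
Gm16104: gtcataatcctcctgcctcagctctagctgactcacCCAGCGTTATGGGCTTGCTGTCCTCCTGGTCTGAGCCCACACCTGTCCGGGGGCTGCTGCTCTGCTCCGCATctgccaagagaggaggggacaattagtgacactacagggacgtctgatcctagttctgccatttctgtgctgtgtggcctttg
In both partner exons the capitals are preceded by AC and followed by CT, which read on the NFI strand are GT after the exon and AG before it, the bases at the ends of most introns. The GC content was 60.6% over the 137 bases of Nfix and 65.3% over the 72 bases of Nfic. In M21, 4 of 8 Nfix transcripts hold the shared exon.

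Total counts ran from 513425 to 624792 per neuron library and from 1368303 to 1775055 per ESC library. CPM below are counts scaled to the library total times its TMM factor. A gene with 3 counts stood at 2.26 to 2.90 CPM in ESC and 3.92 to 4.81 CPM in neuron libraries, so differences below that were not detectable at this depth. Intervals and floors cover counting error only. The labelled cell types were checked by markers and by the genes that share exonic bases with them on the opposite strand. The 12 neuron markers summed to 75.3 to 96.6 CPM in neuron and 98.6 to 117 CPM in ESC libraries, so the markers' own counts did not set the neurons apart. The 4 genes opposite to them summed to 3860 to 4280 and 179 to 218 CPM. The 10 astrocyte markers summed to 72.1 to 103 CPM in neuron and 8.28 to 12.7 CPM in ESC libraries, with Aldh1l1 at 0 in every neuron library, and the 3 genes opposite to them to 1380 to 1930 and 170 to 199 CPM. The 5 progenitor markers summed to 67.1 to 115 CPM in neuron libraries, with Vim at 0, and to 28.1 to 31.6 CPM in ESC libraries, and the genes opposite to them to 355 to 462 and 8.71 to 13.6 CPM. The 7 oligodendrocyte lineage markers summed to 40.1 to 60.0 CPM in neuron and 24.1 to 29.9 CPM in ESC libraries, and the genes opposite to them to 350 to 477 and 1.81 to 5.27 CPM. The 5 microglia markers summed to 128 to 142 CPM in neuron and 201 to 266 CPM in ESC libraries, with C1qa and Tmem119 at 0 throughout. The 2 genes opposite to them summed to 0 to 1.49 CPM in neuron and 0.967 to 1.81 CPM in ESC libraries. The 5 fibroblast markers stayed under 7 CPM in every library. The 8 pluripotent markers summed to 156 to 225 CPM in ESC and 2.61 to 4.81 CPM in neuron libraries, where Pou5f1 and Nanog were at 0. The part of astrocytes and other cells in the NFI values was not tested, and in bulk samples a change in the number of cells of a type and a change in RNA per cell cannot be told apart.

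As the table assigns the counts, the gene with the most counts at an NFI locus was not an NFI gene but G430095P16Rik. ESC replicates 1 to 3 gave 3, 3 and 4 counts for it, against 924, 848 and 826 for neuron replicates 1 to 3. Every ESC library was at or just above the 3-count floor, and all neuron libraries lay far higher despite their smaller totals. Its mean was 2.93 ± 0.681 CPM in ESC and 1260 ± 59.0 CPM in neuron libraries (SD, n = 3). The ratio of pooled counts was 437 (95% counting interval 237 to 912), and the fitted log2 fold change was 8.71 (SE 0.20). By mean CPM it ranked 44 among all genes in neurons and 10383 in ESC. Its coefficient of variation over the neuron libraries was 4.67%, the smallest among the 8 genes.

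Lyl1, opposite the 3′ side of Nfix, was also low in ESC and high in neuron libraries. ESC replicates gave 4, 0 and 1 counts, against 258, 304 and 312 for the neuron replicates. Neuron replicate 1, with 337 CPM, lay below replicates 2 and 3, with 453 and 500 CPM, and all 3 lay far above the ESC libraries. The mean was 1.31 ± 1.54 CPM in ESC and 430 ± 84.1 CPM in neurons, the ratio of pooled counts was 294 (interval 126 to 908), and the fitted log2 fold change was 8.09 (SE 0.31). With so few ESC counts it was 9.38 without ESC replicate 1 and 7.55 without ESC replicate 2.

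Nfix itself was counted 45, 49 and 54 times in ESC replicates, against 25, 15 and 21 times in neuron replicates. In CPM the groups were 43.4 ± 8.27 in ESC and 29.5 ± 6.25 in neurons and were separated only narrowly, since the lowest ESC library stood at 33.9 and the highest neuron library at 33.7. The fitted log2 fold change was −0.54 (SE 0.27) with TMM scaling and turned to 0.19 with total counts, so no direction is given for Nfix. With total counts its groups overlapped, at 25.4 to 36.6 CPM in ESC and 27.0 to 40.9 CPM in neurons. Its counts were thus few in both groups, while those of the genes opposite to it were far apart.

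**Figure D2:**
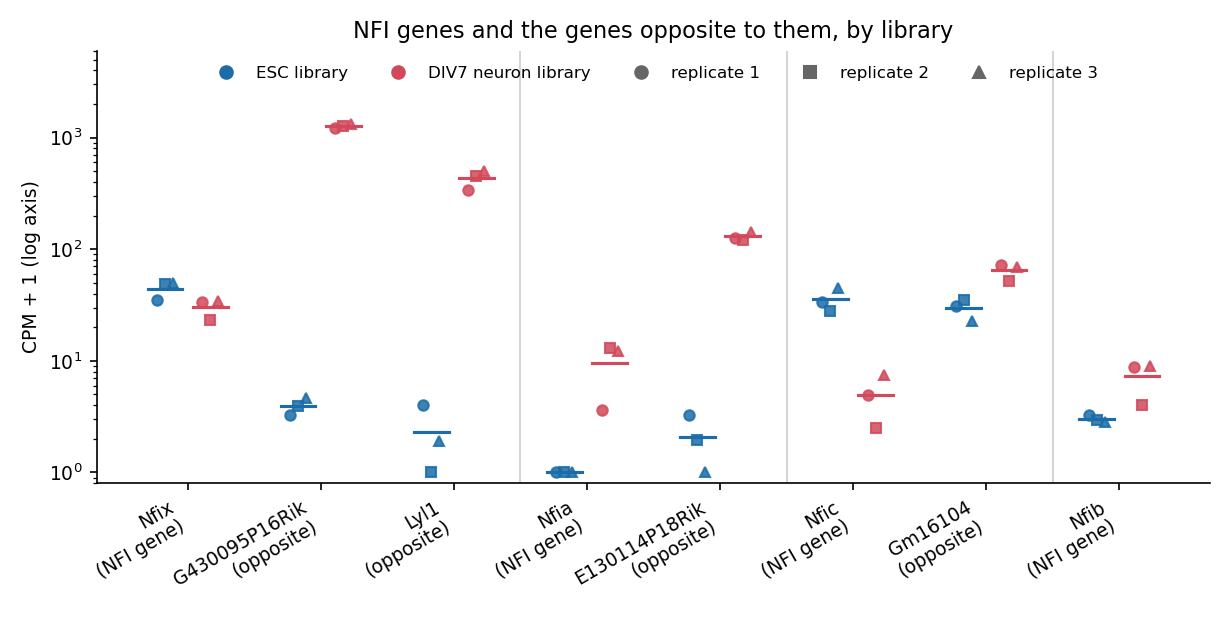
CPM + 1 on a log axis for each NFI gene and the genes opposite to it, with 1 point per library, the replicate by symbol and bars at the group means (n = 3). G430095P16Rik, Lyl1 and E130114P18Rik have at most 4 counts in any ESC library and neuron values above 100 CPM, whereas the Nfix groups nearly touch, at 33.9 CPM (lowest ESC) and 33.7 CPM (highest neuron), and overlap with total-count scaling.

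At the Nfia locus the opposite gene again held most of the counts. For E130114P18Rik the ESC replicates gave 3, 1 and 0 counts, against 95, 81 and 89 for the neuron replicates. The neuron libraries lay close together, at 124, 121 and 143 CPM, and no ESC library had more than 3 counts. The mean was 1.08 ± 1.13 CPM in ESC and 129 ± 11.8 CPM in neurons, the ratio of pooled counts was 111 (interval 43.0 to 412), and the fitted log2 fold change was 6.65 (SE 0.38), 7.64 without ESC replicate 1 and 6.04 without ESC replicate 3. Nfia had no count in any ESC library, against 2, 8 and 7 in the neuron replicates, and did not pass the count filter. Neuron replicate 1 was under its floor of 3 counts, and the other 2 stood at 11.9 and 11.2 CPM. With no count in ESC and so few in neurons, no fold is given for Nfia. The annotation of this start differs between sources. On GRCm38 the 2 genes overlap by 5345 bases of span in M21 and by 6526 in RefSeq, where Nfia begins upstream at 97578066 and E130114P18Rik is 16717 bases long, against 209946 in M21.

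At the Nfic locus the NFI gene and its partner differed between the groups in opposite directions. Nfic was counted 43, 28 and 49 times in ESC replicates, against 3, 1 and 4 times in neuron replicates. Neuron replicates 1 and 2 did not exceed the floor of 3 counts, and no neuron library reached the lowest ESC library. The mean was 34.6 ± 8.84 CPM in ESC and 3.94 ± 2.46 CPM in neurons, 8.92-fold higher in ESC from pooled counts (interval 4.38 to 21.1), and the fitted log2 fold change was −3.11 (SE 0.44). For Gm16104 the ESC replicates gave 40, 35 and 24 counts, against 55, 34 and 43 for the neuron replicates. After scaling, its neuron libraries (50.7 to 71.8 CPM) all lay above its ESC libraries (21.7 to 33.9 CPM), with a ratio of pooled counts of 2.24 (interval 1.72 to 2.94) and a fitted log2 fold change of 1.16 (SE 0.25). Summed over both genes the locus had 63.2 ± 2.63 CPM in ESC and 67.7 ± 13.5 CPM in neurons, with a fitted log2 fold change of 0.10 (SE 0.21).

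Nfib, the NFI gene with no exon-sharing partner, was counted 3, 2 and 2 times in ESC replicates, against 6, 2 and 5 times in neuron replicates, and did not pass the count filter. Neuron replicate 2 was under its floor, and the ESC libraries were at or under theirs. The ratio of pooled counts was 3.12 (interval 1.16 to 9.25). Its span holds 6 other genes that share no exonic base with it, of which 4 lie on the opposite strand. Among these Gm11266 and Gm11269 had at most 2 counts in any library and Gm11268 had none. The fourth, a 105-base gene with no symbol in the reference, gave 1, 0 and 0 counts in ESC replicates, against 6, 8 and 3 in neuron replicates.

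Counting all 8 genes, 6 passed the filter, and none of the 8 overlapped between the groups in CPM, 6 being higher in neurons and 2 (Nfic and Nfix) lower, of which Nfix overlapped with total-count scaling. Groups of libraries did not overlap for 86.4% of the 7150 tested genes either, and the members were chosen on this contrast, so nothing is read from that count. Adding the opposite partners to each NFI gene gave 1720 ± 142 CPM in neurons against 47.6 ± 7.50 CPM in ESC at the Nfix locus and 138 ± 14.3 against 1.08 ± 1.13 CPM at the Nfia locus. The fitted log2 fold changes of these sums were 5.19 (SE 0.14) and 6.74 (SE 0.38).

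Levels were compared between genes per kb of exon. In neurons the order of CPM per kb was G430095P16Rik with 1750 ± 81.9, Lyl1 with 211 ± 41.4, Gm16104 with 134 ± 24.1, E130114P18Rik with 63.1 ± 5.79 and Nfix with 4.02 ± 0.850. No neighbours among these 5 overlapped in their libraries. Nfia (0.788 ± 0.476), Nfic (0.594 ± 0.371) and Nfib (0.420 ± 0.191) followed and overlapped with one another. As the table assigns the counts, the 4 opposite genes stood above the 4 NFI genes in neurons. This order rests on the strand to which reads were assigned, which is not given in the sources used here. In summed CPM the genes opposite to the neuron, astrocyte, progenitor and oligodendrocyte lineage markers also stood above those markers in neurons. Of the sums of opposite genes given above, those of the microglia list stood below their markers. In ESC the order was different. Gm16104 was first with 60.0 ± 13.1 CPM per kb, and Nfix (5.90 ± 1.12), Nfic (5.22 ± 1.33) and G430095P16Rik (4.06 ± 0.945) followed, each overlapping with the next. Its first place came from the division by exon length. In mean CPM Gm16104 (28.6) stood below Nfix (43.4) and Nfic (34.6) in ESC. Lyl1, E130114P18Rik, Nfib and Nfia were under 1 CPM per kb.

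The share of a locus' counts that was assigned to the opposite genes was then taken per library, with exact Clopper-Pearson 95% intervals. At the Nfix locus it was 13.5%, 5.77% and 8.47% in ESC replicates 1 to 3, on 52 to 59 counts. In neuron replicates 1 to 3 it was 97.9%, 98.7% and 98.2%, on 1159 to 1207 counts. At the Nfic locus the share was 48.2%, 55.6% and 32.9% in ESC and 94.8%, 97.1% and 91.5% in neuron libraries, and here too the groups did not overlap. At the Nfia locus it was 97.9%, 91.0% and 92.7% in neuron libraries, while the ESC libraries held 4 counts in all, each on E130114P18Rik, which allows a share from 39.8% up.

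Across the table, 4592 protein-coding genes with an exon-sharing opposite gene had at least 10 counts at the locus in the neuron group, and their median opposite share was 81.5% (quartiles 32.4% and 96.9%). The pooled neuron shares of Nfia (94.0%), Nfic (94.3%) and Nfix (98.3%) lay above those of 66.7%, 67.4% and 81.4% of these loci. In ESC the median over 4414 loci was 83.2%, and the pooled shares of Nfic (45.2%) and Nfix (9.20%) lay above those of only 31.6% and 14.3% of loci. Per kb of exon the ESC shares were 92.0% for Nfic and 44.8% for Nfix, so their low place in ESC holds for counts not scaled by length. The same scaling was not applied to all loci. These percentiles are a description of the pooled libraries.

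**Figure D3:**
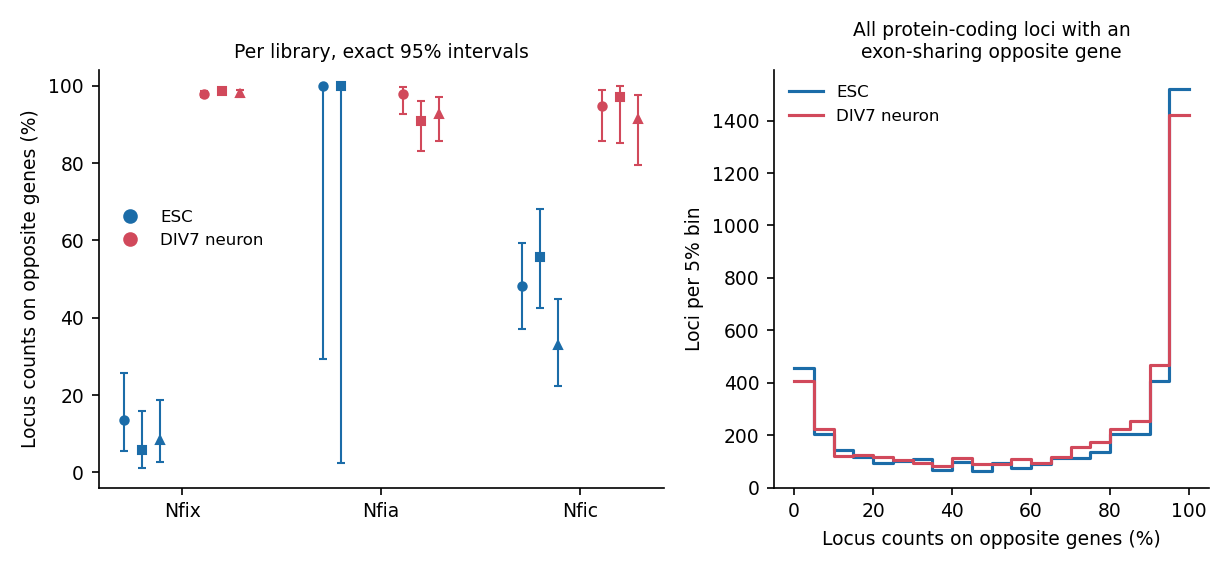
Left, percent of the counts at each NFI locus assigned to the opposite genes, per library (circle, square and triangle for replicates 1 to 3) with exact 95% intervals; ESC replicate 3 had no count at the Nfia locus. Right, the same percent for 4414 (ESC) and 4592 (neuron) protein-coding loci. Nfix moves from under 14% in ESC to over 97% in neuron libraries, while both distributions over all loci have their peak in the last bin.

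Genes upstream of NFI and genes reported as its targets were examined next, from a list of 20. Differences were tested with edgeR's quasi-likelihood test over 7150 genes with Benjamini-Hochberg adjustment, where 85.6% of all tested genes passed an adjusted p of 0.05, 47.0% higher and 38.6% lower in neurons. Of the calls 54.9% were higher in neurons, and 65.5% with total-count scaling, which raises the median log2 fold change of all genes by 0.73. Only 4 of the 20 had enough counts to be tested. Of these 3 were higher in neurons and none was lower, with a median log2 fold change of 2.87 against 0.37 over all tested genes. With 4 genes tested, nothing is read from the share called. The list was chosen with earlier results of these data known, so the p-values of its genes are a description. All 4 tested genes passed the count filter only through their neuron counts, which favours values higher in neurons. The direction of their calls and their median are therefore not read as a result. Cdh2, nearly without counts in ESC, could only be higher.

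Pax6, a regulator of cortical progenitors that acts upstream of NFI genes, gave 8, 8 and 4 counts in ESC replicates, against 61, 41 and 64 in neuron replicates. All 3 neuron libraries were higher in counts assigned to Pax6, with a log2 fold change of 3.78 (SE 0.32) and an adjusted p of 1.7e-13 in edgeR. The means were 5.79 ± 2.07 CPM in ESC and 81.1 ± 20.8 CPM in neurons. The strand limit given above holds for all genes of the list. The neuron markers' own counts were not higher in neurons, so these counts are not read as RNA levels. Notch1, the receptor whose signal induces Nfia in progenitors, gave 17, 2 and 7 counts in ESC replicates, against 25, 24 and 12 in neuron replicates (log2 fold change 1.97, SE 0.41, edgeR adjusted p 4.33e-05). Its ESC replicate 2 was below its floor, and replicate 1 had more raw counts than neuron replicate 3, although the groups did not overlap after scaling. Cdh2, the neural cadherin, gave 1, 1 and 0 counts in ESC replicates, against 21, 14 and 22 in neuron replicates (log2 fold change 5.29, SE 0.59, edgeR adjusted p 2.07e-10). Ezh2, the H3K27 methyltransferase that Nfib represses in cortex, was at 8.79 ± 1.90 CPM in ESC and 9.73 ± 0.655 CPM in neurons and did not pass, with an adjusted p of 0.795 in edgeR and a log2 fold change of 0.12 (SE 0.42).

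The other 16 genes of the list had too few counts for the test, and 7 of the 20 had at most 3 counts in every library. Among the astrocyte targets, Gfap gave 7, 4 and 2 counts in ESC replicates, against 10, 12 and 2 in neuron replicates, and these groups overlapped. Aqp4, the astrocyte water channel, S100b, and the glutamate transporter Slc1a3 had 0 counts in each ESC library and between 1 and 9 in the neuron libraries. Other glial targets were nearly without counts in both groups. Fabp7, the brain fatty acid binding protein, had none except 3 in neuron replicate 2, Apcdd1 had none except 1 in neuron replicate 2, and Mmd2 had 1 in replicate 1 of each group. Sox9, which induces Nfia and then works beside it, had none in ESC, against 11, 4 and 4 in neuron replicates. Hes1, a Notch effector that Nfia represses, had 5, 1 and 3 in ESC replicates, against 0 in each neuron library. Insc, which orients the mitotic spindle, had 1, 1 and 2 in ESC replicates and none in neurons. Zcchc24 gave 3, 2 and 3 counts in ESC replicates, against 3, 5 and 2 in neuron replicates, and Bbx 1, 1 and 0 against 1, 0 and 3. Cntn2, an axonal adhesion protein, gave 0, 0 and 3 against 11, 4 and 5. Gabra6, a GABA receptor subunit of cerebellar granule neurons, had 0 counts throughout.

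The rule that gave the opposite partners of the NFI genes was applied to the list, where 3 of the 20 genes had an exon-sharing opposite gene and 4 such genes were found. All 4 were tested and were higher in neurons, against 41.2% among the 4674 tested genes with exonic bases opposite another gene's exon. ENSMUSG00000120708.1 and ENSMUSG00000120943.1 passed the count filter only through their neuron counts, so they could only be higher. Gm13568 also needed its neuron counts to pass, which favours a higher value in neurons. Gm13568 lies within the span of 0610009E02Rik, both opposite Notch1, so they are not separate cases. Nothing is read from the number that were higher. Opposite Pou3f2, a neural POU factor with no count in ESC and 8, 5 and 1 in neuron replicates, ENSMUSG00000120708.1 had 2, 1 and 0 against 183, 122 and 127 counts (log2 fold change 7.70, SE 0.36, edgeR adjusted p 1.39e-21). Opposite Ephb1, an ephrin receptor with at most 3 counts in any library, ENSMUSG00000120943.1 had 0, 3 and 0 against 68, 80 and 65 counts (log2 fold change 6.69, SE 0.44, edgeR adjusted p 1.4e-16). Neither has a symbol in the reference used. Opposite Notch1, Gm13568 and 0610009E02Rik were higher in neurons by 1.92 (SE 0.33) and 0.98 (SE 0.16) on the log2 scale. Their edgeR adjusted p were 1.6e-06 and 4.14e-07. 0610009E02Rik shared 1074 exonic bases with Notch1 and had 130 to 163 counts in ESC and 146 to 215 in neuron libraries.

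**Figure D4:**
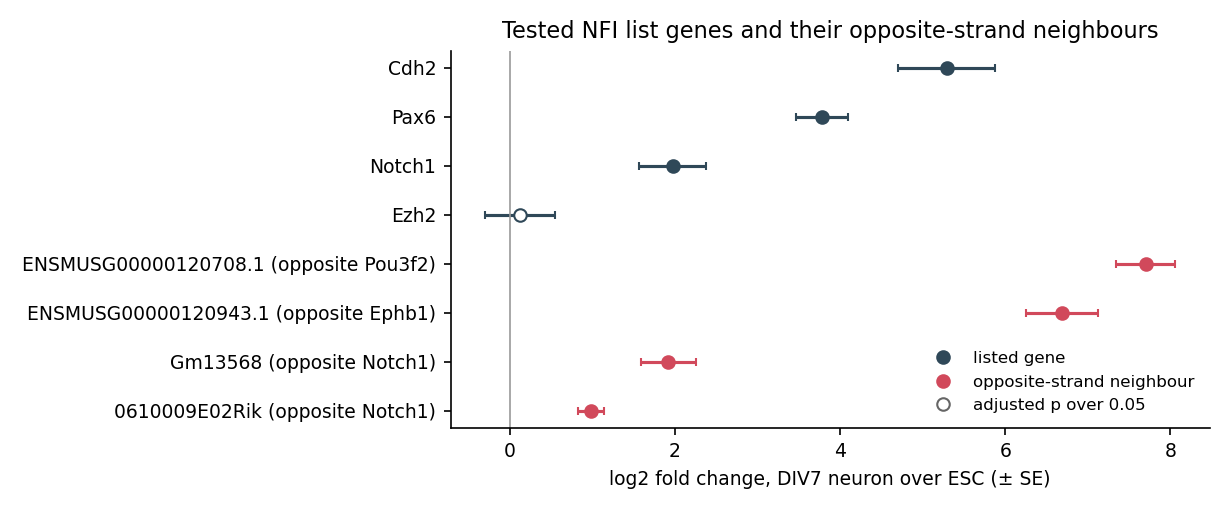
Log2 fold change of neuron over ESC libraries with its SE for the 4 tested genes of the NFI list and the 4 genes opposite to listed genes; open symbols did not pass an edgeR adjusted p of 0.05. All but Ezh2 passed, each above 0, and only 0610009E02Rik did not need its neuron counts to pass the count filter.

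The 3 tested genes with the nearest profile were found for each member that passed the filter, by Euclidean distance between mean-centred log2 CPM over the 6 libraries. For G430095P16Rik these were 2900079G21Rik (distance 0.398), Gm14329 (0.452) and Gm20628 (0.459). Each of the 3 also shares exonic bases with an opposite-strand gene, the first 2 with Arpp21 and Grin2b. So do 4674 of the 7150 tested genes, and nothing is read from this. For Lyl1 they were Basp1 (0.603), Riiad1 (0.726) and Mybph (0.928), and Riiad1 and Mybph lie opposite Celf3 and Adora1. Gm14597 (0.290) and Gm37459 (0.366), the latter opposite Pex5l, were nearest to E130114P18Rik. Fndc9 (0.204) was nearest to Nfix, Smad6 (0.334) to Nfic and Gm44684 (0.218) to Gm16104. With 2 groups of 3 libraries this measure reflects chiefly the size of the difference between the groups.

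NFI binding sites were searched in RefSeq promoters on GRCm38.p6, from 250 bases before to 50 after a start. The TTGGC site, on either strand, was found in 6 of 10 promoters of 7 of the 8 genes and in 9 of 15 promoters of 14 of the listed genes. It was also present in 46.7% of all 32851 promoters. The full palindrome, TTGGC followed by 5 bases and GCCAA, which contains a TTGGC site on each strand, was in none of the 10 and 15 promoters and in 0.0365% of all. One of the 4 Nfix promoters (chr8:84772826-84773125, minus strand) held a TTGGC site on each strand. A match is a description of the letters and not a bound site.

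**Figure D5:**
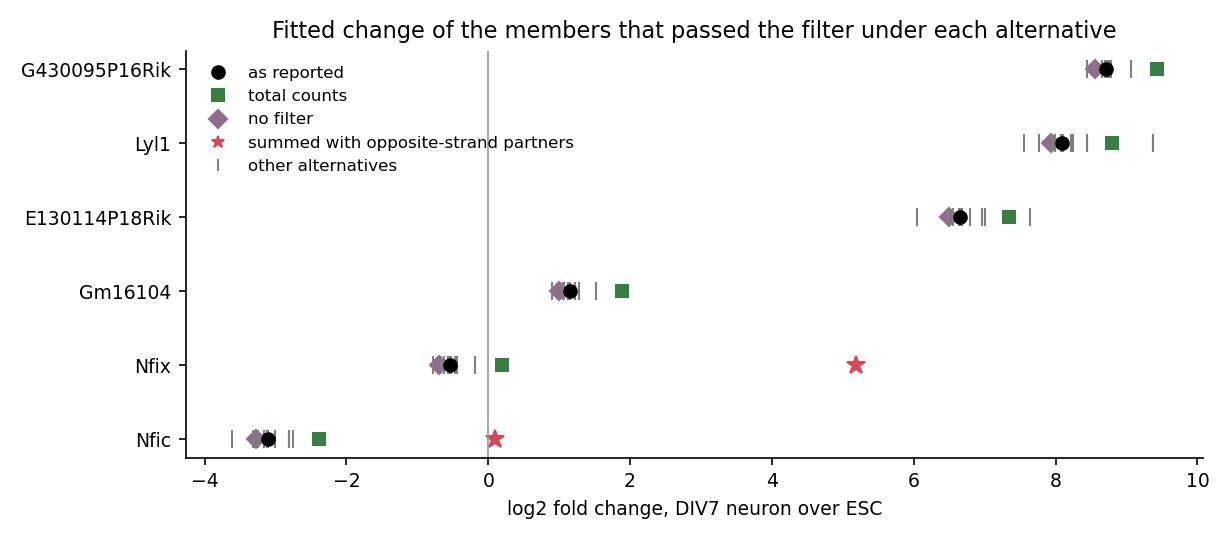
Fitted log2 fold change of the 6 tested members under each processing alternative, with 1 symbol per setting. The 4 opposite genes stay above 0 in each, Nfix lies on either side of 0, and summing with the opposite partners moves Nfix to 5.19 and Nfic to 0.10. G430095P16Rik, Lyl1 and E130114P18Rik passed the count filter only through their neuron counts, and Nfic only through its ESC counts. The members were chosen on this contrast, so nothing is read from these signs.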

How the data were processed

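RNA sequencing of 3 ESC and 3 neuron samples was analysed. The authors deposited raw whole-number counts per gene, with exon positions and length, and every sample column was mapped (0 were not). STAR made the alignments that were counted, per the file headers. The submitters' processing notes list cutadapt, STAR and RSEM and the builds GRCm39 and mm39, without roles. The counting tool, its strand setting and versions are not given in the sources used here. No position was converted between builds. Symbols came from a reference table of gene identifiers (91.3% of genes matched), gene types from GENCODE M21, with the identifier kept where a symbol was not unique. Groups came from the sample titles.

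Exons were intersected with bedtools 2.31.1. Counts were filtered with filterByExpr (minimum count 10), scaled by TMM and fitted with edgeR 4.0.16 (glmQLFit, glmQLFTest, R 4.3.3), with all 6 samples and no covariate. The threshold was an adjusted p of 0.05. The SE is approximate, being the log2 fold change divided by the square root of F. On simulated counts for 7150 genes of this comparison with 200 changed 4-fold, 98.5% of the changed genes were called and 3.90% of calls were unchanged genes. In the data 85.6% of the tested genes were called. The simulation therefore does not give the error rate or test the scaling where most genes differ. Alternatives were DESeq2 1.42.0 (size factors, Wald test), limma 3.58.1 (voom), total counts, other filters, the replicate block, each replicate left out, summed loci, and other settings of the shares and levels.

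The members and lists were chosen with earlier results of these data known. The text names all members, all genes of the list, the genes opposite to them and the nearest profiles. By the rule for named genes the untested list genes would not be named. They were added after their values were seen. A planned comparison of NFI protein sequences was not made. The value of 1 marker gene is not reported here.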

Additional observations from a re-analysis of the deposited data

How the results depend on the processing

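Of the fitted log2 fold changes of the 6 members that passed the filter, 60 of 80 alternatives moved by less than 1 SE, 17 by more, and 3 reversed. The reversals were Nfix with total counts (0.19) and the sums with opposite partners for Nfix (5.19) and Nfic (0.10), which by construction add the partners' counts. With no filter 11762 of 28820 genes and 12 of 19 tested list genes passed (11 higher, 1 lower), more genes being tested. Over the 6 fits leaving out 1 replicate, 5430 to 7353 genes, 3 to 5 list genes and all 4 opposite neighbours passed. Without neuron replicate 2, 5 of 6 tested list genes passed. The number of members above 0 was 4 to 6 in every alternative. The members were chosen on this contrast, and several passed the filter through the counts of 1 group only, so nothing is read from that number. Per kb of exon the opposite share was 98.8% for Nfia in neurons, 92.0% and 99.6% for Nfic in ESC and neurons, and 44.8% and 99.8% for Nfix, since the partners have fewer exonic bases. With replicates left out it ran from 41.0% to 51.4% for Nfic in ESC and from 7.21% to 10.8% for Nfix in ESC. Requiring 100 shared bases left only Nfix with partners, at 9.20% and 98.3%. The level order kept 6 to 8 of 8 places with a replicate left out.

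With the replicate block 6088 genes, 3 list genes and 4 opposite neighbours passed. Deviations of same-numbered samples correlated at r = 0.019, 0.004 and −0.022, so replicate numbers are not treated as pairs. By the Wald test of DESeq2 5774 genes passed and by limma-voom 6078, with 3 list genes each. Few counts limit what can be said of Nfia, Nfib and Nfic, with 17, 13 and 8 counts over all neuron libraries. The Nfia and Nfic loci held 282 and 140 neuron counts, of which 265 and 132 were assigned to the opposite gene.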
